A study of Mus musculus with 7 samples.

Results

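The genes described here are 8 integrin chains of T cells (Itgae, Itgal, Itga4, Itgav, Itgb1, Itgb2, Itgb3 and Itgb7), the hyaluronan receptor gene Cd44 and the integrin ligand gene Icam1. They were chosen by symbol, with earlier results of these data known. Every probe set that the platform annotation gives exactly 1 of these symbols was taken. The genes are 10 of the 18193 genes with a probe set of exactly 1 symbol. They hold 29 probe sets, of which 24 passed the filter on low intensity. All 10 genes passed it with their brightest probe set, whose intensity is the main value given for each gene.

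RNA was measured on 7 Affymetrix expression arrays of sorted mouse thymocytes in 3 groups. Luxoid NKT (3 arrays) were stage 1 natural killer T (NKT) cells of PLZF-deficient Luxoid mutants that carry the Valpha14 T cell receptor transgene. Stage 1 NKT (2 arrays) were the matching cells of Valpha14 transgenic mice without the mutation, and CD4SP (2 arrays) were CD4 single-positive thymocytes of wild-type mice. All mice were 4-6 weeks old on a C57BL/6J background, and each sample came from pooled mice. How many mice made up a pool, and which promoter drives the transgene, is not stated in the labels. Both NKT groups were sorted as CD1d tetramer+ CD24low CD44- NK1.1- cells, so surface CD44 was part of their gate. The cell type label of the CD4SP arrays repeats that sort, whereas their titles and source names call them CD4SP, which was followed here. CD4SP differed from both NKT groups in the transgene as well as in cell type, and from Luxoid NKT in the mutation too. The shares of these in a difference cannot be told apart.

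Zbtb16, which encodes the transcription factor PLZF and is mutated in Luxoid mice, had intensities of 1857, 2774 and 2645 in Luxoid NKT, 2751 and 3488 in stage 1 NKT, and 87.3 and 61.8 in CD4SP. Its transcript was thus high on all 5 NKT arrays and low on both CD4SP arrays, and it did not separate Luxoid NKT from stage 1 NKT without overlap. The transcript level is no check of the loss of PLZF protein. The log2 values of the arrays correlated at 0.984 to 0.992 within a group and at 0.981 to 0.992 between Luxoid NKT and stage 1 NKT. Luxoid NKT replicate 1 correlated more with stage 1 NKT replicate 1 (0.992) than with the other Luxoid NKT arrays (0.985 and 0.990). Arrays numbered 1 in each group had low Y-linked transcripts (mean log2 intensity 3.13 to 3.32) and the other 4 had high ones (8.25 to 9.57), a split that each group spans. The sign of the difference was the same in both sets of arrays for 8 of the 10 adhesion genes in Luxoid NKT minus stage 1 NKT, for 9 in stage 1 NKT minus CD4SP and for 8 in Luxoid NKT minus CD4SP. A gene whose groups do not overlap must keep its sign in both sets, which covers 8, 8 and 6 of the genes. These counts are therefore no separate check, and the share over all genes was not computed.

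Integrins are surface receptors made of 1 alpha and 1 beta chain that bind matrix proteins or ligands on other cells, and they switch between low- and high-affinity forms when signals from inside the cell reach the beta chain tail. In lymphocytes the αEβ7 pair (CD103) binds E-cadherin on epithelial cells, α4 pairs with β1 or β7 to bind VCAM-1 or MAdCAM-1, and αLβ2 (LFA-1) binds ICAM-1. The αV chain pairs with β1 or β3, among others, binds matrix proteins and can release latent TGF-beta. CD44 binds hyaluronan and is a common surface marker of mature and activated T cells, used to stage NKT cells in the thymus.

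Between Luxoid NKT and stage 1 NKT, 0 of the 10 genes passed the limma test at an adjusted p under 0.05, where 1.55% of the 10874 genes tested were called (0.901% higher and 0.653% lower in Luxoid NKT). At an unadjusted p under 0.05, 2 of the 10 lay higher (Itgav and Itgb7) and 2 lower (Itgae and Itga4) in Luxoid NKT, beside 4.48% and 7.12% of all genes. Between stage 1 NKT and CD4SP, 2 genes rose (Itgae and Itgb1) and 0 fell, where 14.9% of genes were called (10.8% higher and 4.08% lower in stage 1 NKT). Between Luxoid NKT and CD4SP, 3 genes rose (Itgae, Itgav and Icam1) and 0 fell, where 16.8% of genes were called (11.3% higher and 5.51% lower in Luxoid NKT). The last 2 comparisons share the CD4SP arrays. At an unadjusted p under 0.05, 5 lay higher and 1 lower in stage 1 NKT than in CD4SP, beside 20% and 9.11% of all genes. At that threshold 4 lay higher and 1 lower in Luxoid NKT than in CD4SP, beside 18.2% and 11.6% of all genes.

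The median log2 difference over the 10 genes was -0.17 for Luxoid NKT minus stage 1 NKT, 0.42 for stage 1 NKT minus CD4SP and 0.18 for Luxoid NKT minus CD4SP, beside -0.03, 0.06 and 0.02 over all genes tested. Luxoid NKT and stage 1 NKT arrays did not overlap for 8 of the 10 genes, 4 higher and 4 lower in Luxoid NKT, where 26.7% of all genes tested did not overlap (10.1% higher, 16.6% lower). Stage 1 NKT and CD4SP did not overlap for 8 genes, 6 higher and 2 lower in stage 1 NKT, where 60.2% of all genes did not overlap (36.6% higher, 23.6% lower). Luxoid NKT and CD4SP did not overlap for 6 genes, 5 higher and 1 lower in Luxoid NKT, where 46% of all genes did not overlap (25.4% higher, 20.6% lower). In bulk RNA, fewer cells of a type and less RNA per cell cannot be told apart. The labels call the samples biological replicates, with 2 or 3 samples of pooled mice a group. Each p-value uses 1 estimate of the spread within groups, taken over all 3 groups. The spread of the third group thus enters each comparison.

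**Figure D1:**
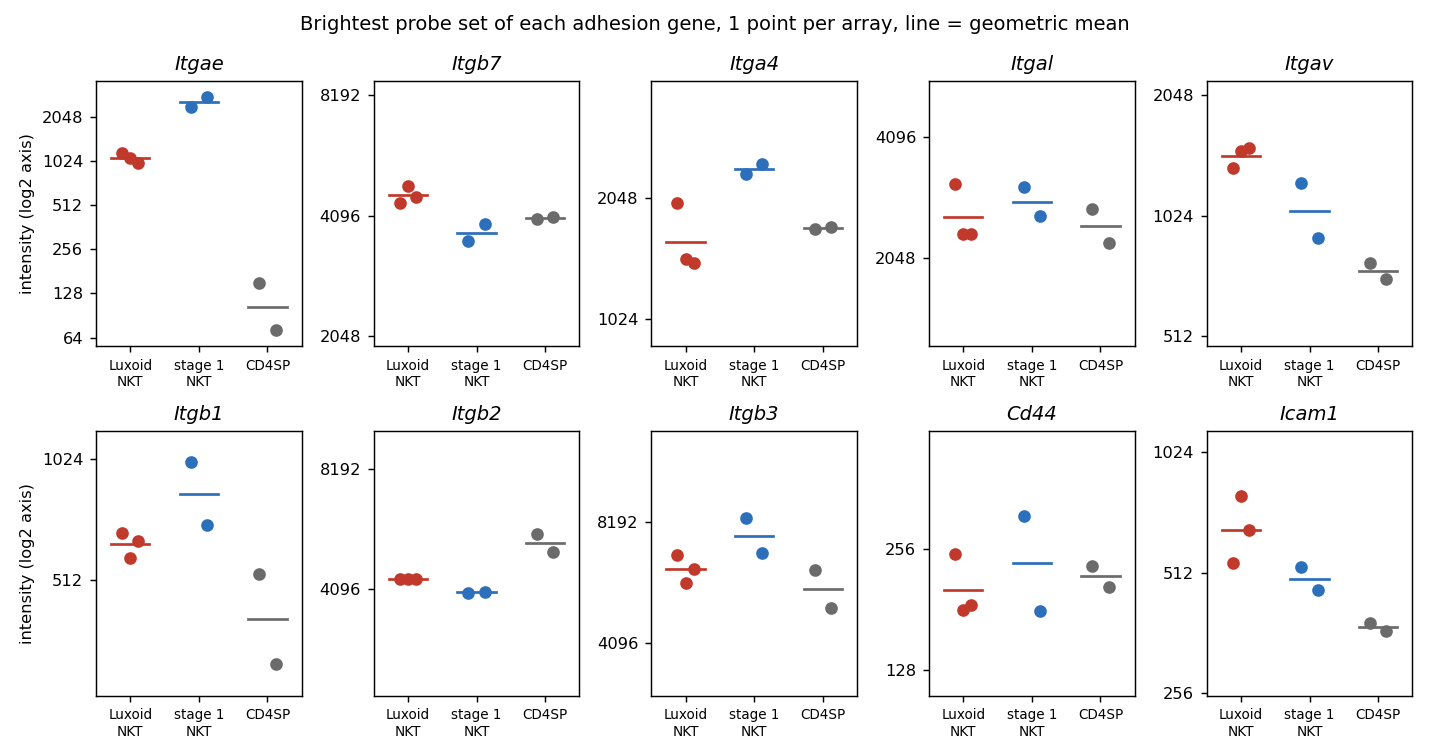
Intensity of the brightest probe set of each adhesion gene on each of the 7 arrays (y axis, log2 scale), with Luxoid NKT at the left, stage 1 NKT in the middle and CD4SP at the right, and a line at each group's geometric mean. Itgae is highest on the stage 1 NKT arrays (2401 and 2782), lower in Luxoid NKT (983 to 1150.3) and lowest in CD4SP (72.1 and 149.9), while Cd44 overlaps in all groups.

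Itgae, the αE chain, differed most among these genes. Its brightest probe set read 1150.3, 1069 and 983 in Luxoid NKT, 2401 and 2782 in stage 1 NKT, and 149.9 and 72.1 in CD4SP. The 3 groups did not overlap, and 1 of the CD4SP arrays lay below the intensity filter of 82.0. Stage 1 NKT exceeded CD4SP by 4.64 ± 0.30 on the log2 scale (SE; 24.9-fold, limma adjusted p = 4.37e-05), and Luxoid NKT exceeded CD4SP by 3.36 ± 0.27 (10.2-fold, limma adjusted p = 9.31e-05). Both calls held under every alternative processing tried. Luxoid NKT minus stage 1 NKT was -1.28 ± 0.27 (2.43-fold lower, 95% interval -1.90 to -0.66), which did not pass (limma adjusted p = 0.0694) although the unadjusted p was 0.00132. Under 6 of 19 alternatives it passed, among them both fits that left out 1 CD4SP array (adjusted p = 0.0114 each), and the adjusted p over all alternatives ran from 0.0114 to 0.508. Within arrays numbered 1 the same difference was -1.06, and within the others -1.44.

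The second Itgae probe set read 342, 269 and 289 in Luxoid NKT, 687 and 539.7 in stage 1 NKT, and 165 and 85.0 in CD4SP. It gave the same order of groups with smaller differences: -1.03 for Luxoid NKT minus stage 1 NKT, 2.36 for stage 1 NKT minus CD4SP (limma over probe sets, adjusted p = 0.00182) and 1.34 for Luxoid NKT minus CD4SP (adjusted p = 0.0135). The CD4SP arrays spread most, with a log2 SD of 0.75 for the brightest probe set against 0.11 in Luxoid NKT and 0.15 in stage 1 NKT. That CD4SP spread also enters the test of Luxoid NKT against stage 1 NKT. Of 5 listed gamma delta T cell genes, which mark cells that can also carry CD103, 2 had a probe set here (Sox13 and Cd163l1). Their summed intensity was 757 to 961 in Luxoid NKT, 961 to 1133 in stage 1 NKT and 157 to 221 in CD4SP. Like Itgae, this sum was higher on every NKT array than on either CD4SP array. The sum overlapped between the NKT groups (961.2 in Luxoid NKT replicate 3, 960.6 in stage 1 NKT replicate 1). Most of it on the NKT arrays was Cd163l1 (692 to 846 in Luxoid NKT, 761 and 785 in stage 1 NKT). Sox13 alone had 110, 64.9 and 115 in Luxoid NKT, 199 and 348 in stage 1 NKT, and 48.6 and 41.8 in CD4SP. Its groups did not overlap and stood in the same order as those of Itgae. The part of these genes in the Itgae result was not tested.

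Itgb7, the β7 partner of αE and α4, had 4409, 4864 and 4561 in Luxoid NKT, 3532 and 3907 in stage 1 NKT, and 4012 and 4065 in CD4SP. Its Luxoid NKT arrays lay above all others, and stage 1 NKT lay lowest. None of its 3 differences passed: 0.31 ± 0.13 for Luxoid NKT minus stage 1 NKT (95% interval 0.01 to 0.61, limma adjusted p = 0.408), -0.12 ± 0.14 for stage 1 NKT minus CD4SP (adjusted p = 0.620) and 0.19 ± 0.13 for Luxoid NKT minus CD4SP (adjusted p = 0.376).

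Itga4, the α4 chain of the pairs that bind VCAM-1 and MAdCAM-1, had 1992, 1443 and 1409 in Luxoid NKT, 2354 and 2502 in stage 1 NKT, and 1713 and 1741 in CD4SP. Stage 1 NKT lay above every other array, and Luxoid NKT straddled CD4SP. Luxoid NKT minus stage 1 NKT was -0.61 ± 0.17 (limma adjusted p = 0.188), and stage 1 NKT minus CD4SP was 0.49 ± 0.19 (adjusted p = 0.129). Luxoid NKT minus CD4SP was -0.12 ± 0.17 (adjusted p = 0.706), and only 2 of the 5 Itga4 probe sets had a negative sign there. In the other comparisons all 5 agreed in sign: Luxoid NKT minus stage 1 NKT ran from -0.76 to -0.21, and stage 1 NKT minus CD4SP from 0.49 to 0.75. Of these 5, 1 was called between stage 1 NKT and CD4SP (limma over probe sets, adjusted p = 0.0179).

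Itgb1, the β1 chain that completes the α4β1 receptor and pairs with many other alpha chains, had 671, 582 and 641 in Luxoid NKT, 1007 and 700.3 in stage 1 NKT, and 529 and 315 in CD4SP. It was highest in stage 1 NKT and lowest in CD4SP, with no overlap between the groups. Stage 1 NKT exceeded CD4SP by 1.04 ± 0.26 (2.06-fold, limma adjusted p = 0.0322). That call rested on the particular arrays: it was lost without stage 1 NKT replicate 1 (adjusted p = 0.212), stage 1 NKT replicate 2 (0.0531) or CD4SP replicate 2 (0.182). Luxoid NKT minus stage 1 NKT was -0.41 ± 0.24 (adjusted p = 0.584) and Luxoid NKT minus CD4SP was 0.63 ± 0.24 (adjusted p = 0.121). The second of these passed without CD4SP replicate 1 (0.0461) and with the Y-linked level as a covariate (0.0236). Of 6 Itgb1 probe sets, 3 passed the filter, and these 3 agreed in sign in each comparison. Only the brightest was called in stage 1 NKT minus CD4SP (limma over probe sets, adjusted p = 0.0409). The others past the filter stood at 0.82 (adjusted p = 0.0708) and 0.53 (0.168) there.

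**Figure D2:**
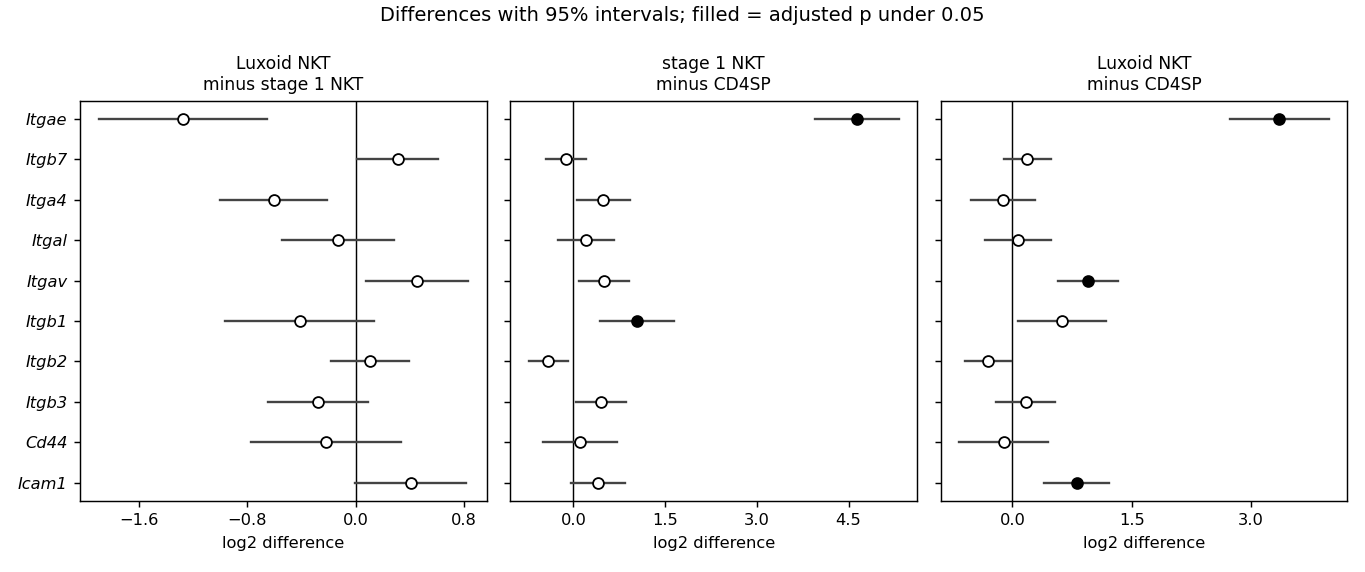
Log2 difference of each gene's brightest probe set (x axis) with its 95% interval, in 3 panels for Luxoid NKT minus stage 1 NKT, stage 1 NKT minus CD4SP and Luxoid NKT minus CD4SP, where filled points have an adjusted p under 0.05. No point is filled in the first panel, Itgae and Itgb1 are filled in the second, and Itgae, Itgav and Icam1 in the third.

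Itgav, the αV chain, had 1348, 1490.0 and 1508 in Luxoid NKT, 1235 and 902 in stage 1 NKT, and 781 and 714 in CD4SP. On this brightest probe set the groups did not overlap and stood in the order Luxoid NKT, stage 1 NKT, CD4SP. Luxoid NKT exceeded CD4SP by 0.95 ± 0.17 (1.94-fold, limma adjusted p = 0.00521), and without CD4SP replicate 2 the call was lost (adjusted p = 0.0579). The difference of Luxoid NKT minus stage 1 NKT was 0.46 ± 0.17 (adjusted p = 0.331) and stage 1 NKT minus CD4SP was 0.50 ± 0.18 (adjusted p = 0.106). Of the 4 Itgav probe sets past the filter, 3 were called between Luxoid NKT and CD4SP, at 0.91 to 1.00, and the fourth stood at -0.02. The probe set second in brightness was also higher in stage 1 NKT than in CD4SP, by 1.06 (limma over probe sets, adjusted p = 0.0217). On it Luxoid NKT (368, 255 and 232) overlapped stage 1 NKT (340 and 280), with a difference of -0.15. In that comparison 3 of the 4 probe sets past the filter, the brightest among them, had a positive difference.

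Itgb3, the β3 partner of αV, had 6805, 5773 and 6258 in Luxoid NKT, 8391 and 6873 in stage 1 NKT, and 6236 and 4996 in CD4SP. Stage 1 NKT lay above the other arrays, while Luxoid NKT and CD4SP overlapped. Its differences did not pass: -0.28 ± 0.16 for Luxoid NKT minus stage 1 NKT (limma adjusted p = 0.587), 0.44 ± 0.18 for stage 1 NKT minus CD4SP (adjusted p = 0.140) and 0.17 ± 0.16 for Luxoid NKT minus CD4SP (adjusted p = 0.547). The second Itgb3 probe set read 474, 532 and 610.2 in Luxoid NKT, 872 and 776 in stage 1 NKT, and 372 and 424 in CD4SP. It separated the 3 groups without overlap, in the order stage 1 NKT, Luxoid NKT, CD4SP. Stage 1 NKT minus CD4SP was 1.05 on it (limma over probe sets, adjusted p = 0.00734), so the probe sets agreed in sign and differed on the call. With the mean of the gene's probe sets as its value, this comparison passed (adjusted p = 0.00626), as it did for the brightest probe set with the Y-linked level as a covariate (adjusted p = 0.0479).

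Itgal, the αL chain of LFA-1, had 3141, 2352 and 2347 in Luxoid NKT, 3072 and 2603 in stage 1 NKT, and 2709.7 and 2226 in CD4SP. All groups overlapped. Differences were -0.13 ± 0.18 for Luxoid NKT minus stage 1 NKT (limma adjusted p = 0.864), 0.20 ± 0.20 for stage 1 NKT minus CD4SP (adjusted p = 0.542) and 0.08 ± 0.18 for Luxoid NKT minus CD4SP (adjusted p = 0.828). Its second probe set agreed in sign in all 3 comparisons.

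Itgb2, the β2 partner of αL, had 4338, 4352 and 4352 in Luxoid NKT, 4016 and 4047 in stage 1 NKT, and 5649 and 5088 in CD4SP. CD4SP lay above both NKT groups, and the NKT groups did not overlap each other either. The test did not pass at -0.41 ± 0.14 for stage 1 NKT minus CD4SP (limma adjusted p = 0.0844) or at -0.30 ± 0.13 for Luxoid NKT minus CD4SP (adjusted p = 0.149). Both passed when the fit's prior variance followed intensity (adjusted p = 0.0158 and 0.0366). Between Luxoid NKT and stage 1 NKT the difference was 0.11 ± 0.13 (adjusted p = 0.826).

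Icam1, the ligand of LFA-1, had 541, 797 and 654 in Luxoid NKT, 529 and 462 in stage 1 NKT, and 382 and 367 in CD4SP. The groups did not overlap and stood in the order Luxoid NKT, stage 1 NKT, CD4SP. Luxoid NKT exceeded CD4SP by 0.81 ± 0.18 (1.75-fold, limma adjusted p = 0.0166). That call was lost without CD4SP replicate 1 (adjusted p = 0.0848) or CD4SP replicate 2 (0.115). For Luxoid NKT minus stage 1 NKT the difference was 0.41 ± 0.18 (adjusted p = 0.433) and stage 1 NKT minus CD4SP was 0.40 ± 0.20 (adjusted p = 0.218). The Luxoid NKT arrays spread widely, with array 1 close to the higher stage 1 NKT array.

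The promoters of Icam1 and Itgav are shown because these 2 genes, with Itgae, were called between Luxoid NKT and CD4SP. A promoter entry was supplied for 6 of the 10 genes (Itga4, Itgav, Cd44, Itgb1, Itgb7 and Icam1) and not for Itgae, Itgal, Itgb2 or Itgb3. Each sequence is the 250 bases before the annotated start, from RefSeq on build GRCm38.p6, plus strand, at chr9:21015690-21015939 for Icam1 and chr2:83724147-83724396 for Itgav. Capitals mark matches to 4 motifs searched on both strands, chosen after the sequences were seen: a palindromic kB site (GGAANTTCC), an Sp site (GGGCGG), an Ets site (CCGGAA) and a Runx site (TGTGGT).
Icam1: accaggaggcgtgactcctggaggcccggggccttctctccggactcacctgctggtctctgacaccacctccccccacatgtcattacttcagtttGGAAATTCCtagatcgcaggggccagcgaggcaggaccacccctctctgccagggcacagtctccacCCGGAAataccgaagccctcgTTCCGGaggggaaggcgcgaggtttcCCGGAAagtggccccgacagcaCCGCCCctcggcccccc
Itgav: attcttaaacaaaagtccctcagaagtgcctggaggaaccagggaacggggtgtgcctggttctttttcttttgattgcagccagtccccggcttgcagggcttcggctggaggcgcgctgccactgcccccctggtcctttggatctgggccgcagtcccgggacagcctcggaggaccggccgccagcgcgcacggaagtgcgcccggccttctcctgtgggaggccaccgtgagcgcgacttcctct
The Icam1 window holds 1 kB match that begins 153 bases before the start, 3 Ets matches at 86, 65 and 39 bases and 1 Sp match at 17 bases, and no 2 of these overlap. Of 32851 promoter windows of this length, 0.813% hold the kB letters, 12% the Ets letters, 32.7% the Sp letters and 14% the Runx letters. The Itgav window holds none of the 4 letter strings, Itga4 holds the Sp and Runx strings, and Itgb1 holds the Sp string. These matches describe letters in a window, and no binding was measured.

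Cd44 had 248, 181 and 186 in Luxoid NKT, 310.3 and 179.8 in stage 1 NKT, and 233 and 206 in CD4SP. The arrays of all 3 groups overlapped, and the stage 1 NKT arrays lay at both ends of the range. Both NKT groups had been gated as CD44- by surface stain, and the labels name no CD44 gate for CD4SP apart from the repeated sort label. Differences were -0.22 ± 0.24 for Luxoid NKT minus stage 1 NKT (95% interval -0.77 to 0.34, limma adjusted p = 0.816), 0.11 ± 0.27 for stage 1 NKT minus CD4SP (-0.50 to 0.72, adjusted p = 0.818) and -0.11 ± 0.24 for Luxoid NKT minus CD4SP (-0.67 to 0.45, adjusted p = 0.812). The 4 Cd44 probe sets, 3 of them past the filter, did not agree in sign in any of the comparisons.

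**Figure D3:**
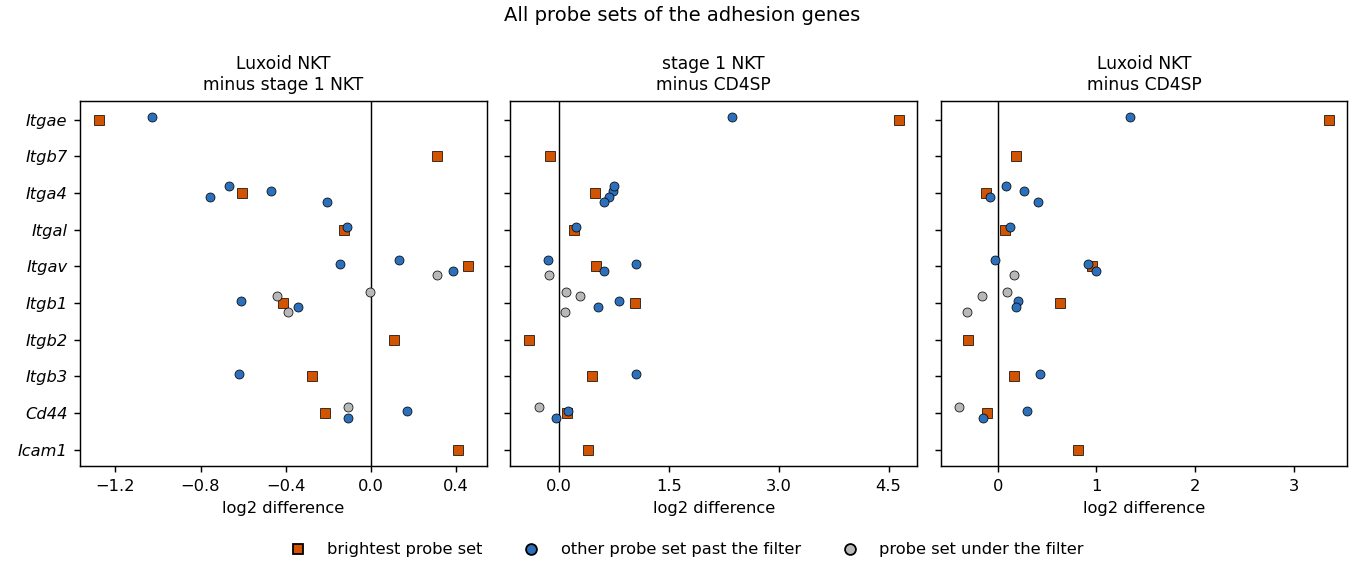
Log2 difference of all 29 probe sets of the adhesion genes (x axis), in 3 panels for Luxoid NKT minus stage 1 NKT, stage 1 NKT minus CD4SP and Luxoid NKT minus CD4SP, with squares for the brightest probe set, blue circles for others past the filter and grey circles for those under it. Both Itgae probe sets lie left of 0 in the first panel (-1.28 and -1.03) and right of it in the others, whereas the Cd44 probe sets lie on both sides of 0.

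Itga2, which encodes the α2 chain of a collagen receptor, was the only one of the other integrin chains called. Of 14 other alpha chains listed, 12 had a probe set and 7 were tested, and of 5 other beta chains only Itgb5 was tested. Over all genes, 14.9% were called in stage 1 NKT against CD4SP and 16.8% in Luxoid NKT against CD4SP. In Luxoid NKT against stage 1 NKT the share was 1.55%. Itga2 had 294, 358 and 294 in Luxoid NKT, 180.4 and 237 in stage 1 NKT, and 83.3 and 72.0 in CD4SP, with no overlap. Its CD4SP mean of 77.5 lay under the filter, so the size of its differences rests on values near the filter and no fold is given. It rose in stage 1 NKT against CD4SP by 1.42 ± 0.19 (limma adjusted p = 0.00182) and in Luxoid NKT against CD4SP by 2.02 ± 0.17 (adjusted p = 0.000127). The median difference over the 7 alpha chains was 0.14 for Luxoid NKT minus stage 1 NKT, -0.12 for stage 1 NKT minus CD4SP and -0.03 for Luxoid NKT minus CD4SP. Itgam, Itgax, Vcam1, Cdh1 (E-cadherin) and Fn1 (fibronectin) lay under the filter on every array.

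Of 37 genes of integrin activation and its adaptors, 30 were tested. In Luxoid NKT against stage 1 NKT 2 rose and 0 fell, where 1.55% of all genes were called, and the median difference of the 30 was 0.12. Rasgrp1, a Ras exchange factor, had 3687, 4272 and 3918 in Luxoid NKT, 1543 and 1623 in stage 1 NKT, and 4497 and 4829.6 in CD4SP. Stage 1 NKT thus stood apart from both other groups. Luxoid NKT minus stage 1 NKT was 1.32 ± 0.13 (2.5-fold, limma adjusted p = 0.00192), and stage 1 NKT minus CD4SP was -1.56 ± 0.15 (adjusted p = 0.000259), calls kept under every alternative. Cytip, a cytohesin partner that restrains LFA-1 adhesion, had 5403, 4746 and 4911 in Luxoid NKT, 2866 and 2219.6 in stage 1 NKT, and 4188 and 3910.4 in CD4SP, so stage 1 NKT again lay below all other arrays. It rose by 0.99 ± 0.15 in Luxoid NKT against stage 1 NKT (adjusted p = 0.0178), and this call was lost without stage 1 NKT replicate 2 (0.229) or Luxoid NKT replicate 3 (0.0591).

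In stage 1 NKT against CD4SP, where the median difference was -0.0026, 0 activation genes rose (3 at an unadjusted p under 0.05) and 4 fell: Rasgrp1, Cytip (-0.68 ± 0.17), Vav1 (-0.57 ± 0.15) and the actin crosslinker Actn1 (-1.86 ± 0.25, limma adjusted p = 0.00174), where 10.8% of all genes rose and 4.08% fell. In Luxoid NKT against CD4SP, where it was 0.06, 1 rose (Flna, the integrin tail binder filamin A, 0.53 ± 0.15) and 1 fell (Actn1, -1.57 ± 0.22, adjusted p = 0.00191), where 11.3% of all genes rose and 5.51% fell. Talin (Tln1), which activates integrins through the beta chain tail, had 2953 to 4471 in Luxoid NKT, 2957 and 3545 in stage 1 NKT, and 3101 and 3205 in CD4SP. Fermt3 (kindlin-3), which acts with talin, had 2933 to 3482, 3028 and 3779, and 2774 and 3657 in the same order of groups, and neither gene passed a test. The calls of Vav1 and Cytip in stage 1 NKT against CD4SP and of Flna in Luxoid NKT against CD4SP were each lost when single arrays were left out, as the counts of lost calls show.

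Among 36 integrin ligands and other adhesion receptors, of which 22 were tested, Cd2 alone rose in Luxoid NKT against stage 1 NKT and 0 fell. Over all genes, 0.901% rose and 0.653% fell in that comparison. The median difference of the 22 was 0.04 in that comparison, -0.13 in stage 1 NKT minus CD4SP and -0.01 in Luxoid NKT minus CD4SP. Cd2, a receptor for CD48, had 6047, 6490.2 and 5563 in Luxoid NKT, 3606 and 3850.2 in stage 1 NKT, and 6374 and 6857 in CD4SP. The difference of Luxoid NKT minus stage 1 NKT was 0.69 ± 0.13 (limma adjusted p = 0.0484), and leaving out any of the 7 arrays took it past the threshold (adjusted p 0.0811 to 0.314). Each NKT group had 5 genes higher than CD4SP (Alcam, Cd226, Cd9, Cd82 and Lgals1), where 11.3% of all genes rose in Luxoid NKT and 10.8% in stage 1 NKT. Of the 8 calls of this list in stage 1 NKT against CD4SP, 1 was left without CD4SP replicate 2 and 2 were left without stage 1 NKT replicate 1, and the Cd226 call there held in 8 of 19 alternatives. Alcam, a ligand of CD6, was under the filter in CD4SP, so its increase is at least 3.17-fold in Luxoid NKT (limma adjusted p = 0.000349) and at least 1.55-fold in stage 1 NKT (adjusted p = 0.0176). Genes lower than CD4SP were Cd6 (-0.94 ± 0.15 in Luxoid NKT) and Cd96 (-1.90 ± 0.18 in Luxoid NKT) in both NKT groups, and Cd2 in stage 1 NKT. Of all genes, 5.51% fell in Luxoid NKT and 4.08% in stage 1 NKT.

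For the list of CD44 and hyaluronan genes, 9 of 18 were tested, with 0 called by limma in Luxoid NKT against stage 1 NKT. At an unadjusted p under 0.05, 1 was lower there, beside 7.12% of all genes. The median differences of the 9, in the order of comparisons above, were -0.04, 0.02 and -0.01. Against CD4SP, 2 rose and 1 fell in each NKT group, where 16.8% of all genes were called in Luxoid NKT and 14.9% in stage 1 NKT. Srgn, the core protein of the granule proteoglycan serglycin, rose by 0.91 ± 0.15 in Luxoid NKT (limma adjusted p = 0.00357) and by 1.18 ± 0.16 in stage 1 NKT (adjusted p = 0.00186). Hmmr, a hyaluronan-binding protein of the mitotic spindle, rose by 1.01 ± 0.17 in Luxoid NKT and by 1.22 ± 0.18 in stage 1 NKT. Cd74, the invariant chain, fell by 1.22 ± 0.13 in Luxoid NKT and by 0.81 ± 0.14 in stage 1 NKT, on the log2 scale. The hyaluronan synthases Has1, Has2 and Has3 were at intensities of 17.3 to 82.3 on all arrays.

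TGF-beta signalling is known to induce Itgae in T cells, and of 16 listed genes of that route 14 were tested. In Luxoid NKT against stage 1 NKT 0 were called by limma, where 1.55% of all genes were called. At an unadjusted p under 0.05, 3 were higher and 0 lower, beside 4.48% and 7.12% of all genes. The median difference of the 14 was 0.01 there, -0.39 in stage 1 NKT minus CD4SP and -0.10 in Luxoid NKT minus CD4SP. In stage 1 NKT against CD4SP 0 rose and 3 fell: Tgfbr3, Skil and Runx3, where 10.8% of all genes rose and 4.08% fell. At an unadjusted p under 0.05, 2 were higher and 6 lower there, beside 20% and 9.11% of all genes. Leaving out any of the 4 arrays of these groups left 1 call. In Luxoid NKT against CD4SP 1 rose (Smad3, 0.51 ± 0.14, limma adjusted p = 0.0436) and 2 fell (Tgfbr3 and Skil), and the Smad3 call was lost whichever of the 7 arrays was left out (adjusted p 0.0636 to 0.275). Over all genes, 11.3% rose and 5.51% fell in Luxoid NKT against CD4SP. Skil, a repressor of SMAD signalling, had 1104, 820.5 and 665 in Luxoid NKT, 1132 and 890 in stage 1 NKT, and 2207 and 2122 in CD4SP. It lay lower on every NKT array than on either CD4SP array, by 1.36 ± 0.22 in Luxoid NKT (adjusted p = 0.00361). The receptor genes Tgfbr1 and Tgfbr2 did not pass at an adjusted p under 0.05 in any comparison. Both lay higher on every Luxoid NKT array than on either stage 1 NKT array, as 10.1% of all genes did. Tgfbr1 had 647, 594 and 749 against 507 and 345, and Tgfbr2 had 3096, 2761 and 2440 against 2387 and 1727. Of the 14 genes, 7 had a positive and 7 a negative difference there.

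Over these lists 38 differences were called, and 14 of them were called under every alternative in which the gene was tested. In stage 1 NKT against CD4SP, leaving out stage 1 NKT replicate 1, stage 1 NKT replicate 2, CD4SP replicate 1 or CD4SP replicate 2 ended 10, 8, 7 and 11 calls (adjusted p of those lost 0.0533 to 0.272). In Luxoid NKT against CD4SP, leaving out CD4SP replicate 1 or 2 ended 6 and 7 calls, among them Flna and Smad3 in both cases, with an adjusted p of at most 0.275. Flna also lost its call without either stage 1 NKT array, Luxoid NKT replicate 1 or Luxoid NKT replicate 3. The kept calls were those of Itga2, Rasgrp1, Actn1 and Srgn in each comparison where they were called, Hmmr in stage 1 NKT against CD4SP, and Alcam, Cd6, Cd96, Cd74 and Skil in Luxoid NKT against CD4SP. The stricter filter left Itga2, Alcam and Cd74 untested.

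**Figure D4:**
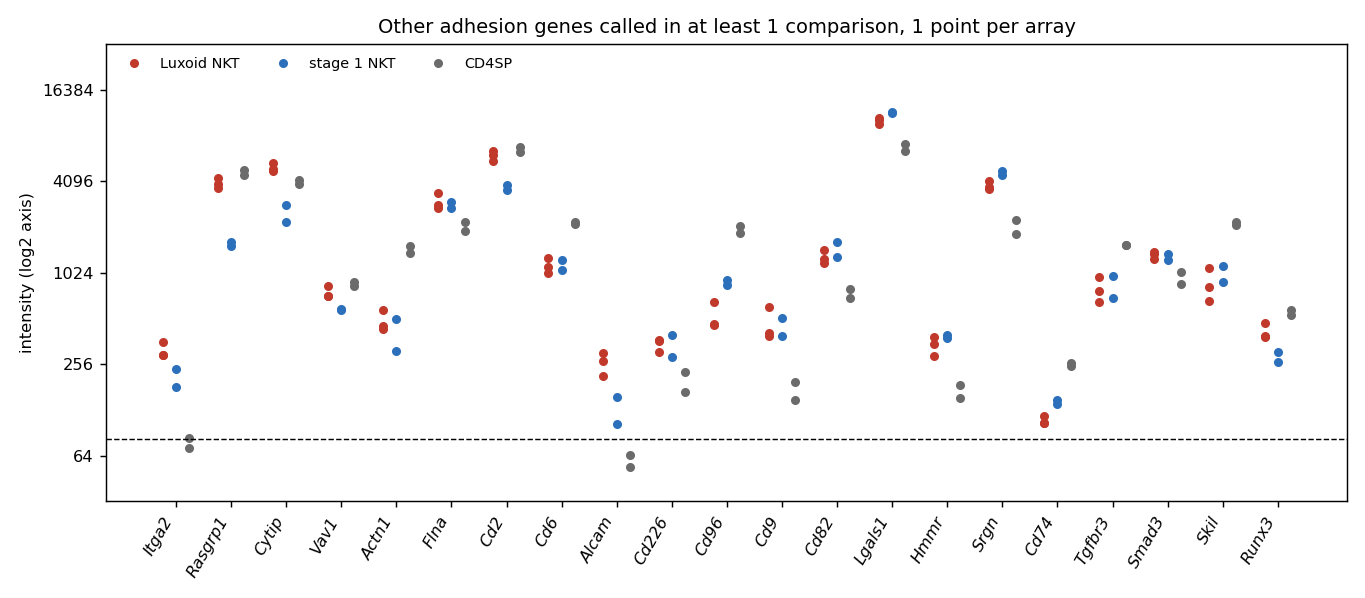
Intensity on each array (y axis, log2 scale) of the other adhesion genes called in at least 1 comparison, with Luxoid NKT left, stage 1 NKT in the middle and CD4SP right for each gene, and a dashed line at the filter of 82.0. Rasgrp1 and Cytip are lower on the stage 1 NKT arrays than on all others, and Itga2 lies at the filter in CD4SP (72.0 and 83.3).

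Other cell markers moved between the groups as follows. Defining myeloid, platelet and erythroid genes lay under the filter on every array for 6 of 10, 5 of 7 and 4 of 4 with a probe set, and these include Itgam, Itgax, Pf4 and Hba-a1. Of 5 CD8 lineage genes, Nkg7 had 908 to 1256 in Luxoid NKT, 904 and 805 in stage 1 NKT, and 84.2 and 96.6 in CD4SP, while Cd8b1 fell in both NKT groups and Cd8a and Runx3 fell in stage 1 NKT against CD4SP. Cd8a rose in Luxoid NKT against stage 1 NKT (0.86 ± 0.16, limma adjusted p = 0.0342). The sum of the 5 was 1598 to 1910.3 in Luxoid NKT, 1324 to 1365 in stage 1 NKT and 1114 to 1244 in CD4SP. Of 6 NK cell genes, Fcer1g had 843 to 982 in Luxoid NKT, 253 and 218 in stage 1 NKT, and 68.9 and 82.5 in CD4SP, and Klrd1 also rose in both NKT groups against CD4SP.

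Tyrobp, a partner of NK cell receptors, fell in both NKT groups, with 76.3 to 135 in Luxoid NKT, 116 and 61.9 in stage 1 NKT, and 208 and 349.5 in CD4SP. The sum of the NK cell genes was 1160.0 to 1314 in Luxoid NKT, 442 to 559 in stage 1 NKT and 371 to 509 in CD4SP. Most of the Luxoid NKT sum was Fcer1g. Klrd1 (142 to 213 in Luxoid NKT, 126 and 154 in stage 1 NKT) and Tyrobp overlapped between the NKT groups, and Ncr1, Klra8 and Klrc1 were under the filter everywhere. Of 6 regulatory T cell genes, Foxp3, Ctla4, Tnfrsf18 and Gpr83 fell in both NKT groups against CD4SP, Il2ra fell in Luxoid NKT, and Ikzf2 rose in Luxoid NKT (1.27 ± 0.26, limma adjusted p = 0.0111) and in stage 1 NKT (1.15 ± 0.28, adjusted p = 0.0279). Dntt, a double-positive thymocyte gene, was 5.84-fold lower in Luxoid NKT and at least 6.01-fold lower in stage 1 NKT. Cd24a, whose protein was part of the NKT gate, was at least 2.96-fold lower in each NKT group. Both gamma delta T cell genes with a probe set, Sox13 and Cd163l1, rose in both NKT groups, and their sum was 757 to 961 in Luxoid NKT, 961 and 1133 in stage 1 NKT, and 221 and 157 in CD4SP. Of the B cell genes, Cd79b rose and Cd79a fell in both NKT groups, and of the myeloid genes H2-Aa and Cd74 fell in both. Of 42 marker differences called, 26 were called whichever array was left out, and 16 were lost without at least 1 array. Those lost were every call of Ikzf2, Tnfrsf18, Tyrobp, Cd8a, Cd8b1 and Cd79a. Also lost were the calls of Cd79b, H2-Aa and Klrd1 in stage 1 NKT against CD4SP, and of Sox13 in Luxoid NKT against CD4SP. The Cd8a call in Luxoid NKT against stage 1 NKT was lost in 6 of the fits without 1 array. The part of these marker genes in the adhesion differences was not tested.

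The 3 genes whose log2 values were most like those of each adhesion gene are given as a description over the 7 arrays, which share the 3 groups. For Itgae they were Lgals1, Zcchc17 and Syce2 (Pearson r 0.996, 0.996 and 0.994). For Itgb1 they were Cct8, Gpalpp1 and Rwdd2b (0.994, 0.992 and 0.988). For Itgav they were Fgf2, Mdm1 and Msl3 (0.990, 0.984 and 0.984), and for Icam1 Gba2, Ssx2ip and Coprs (0.997, 0.988 and 0.987). They were Rab11b, Mmp14 and Ctse for Itgb7, Wdr6, Klk8 and Mrpl2 for Itga4, and Mars1, Asb7 and Arpc5 for Itgal. They were Chchd7, Sfi1 and Myo10 for Itgb2, Dnajc2, Atic and Cmtm3 for Itgb3, and Srsf5, Phf10 and Antkmt for Cd44. For these 6 genes the r of the closest gene ran from 0.971 to 0.992.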

How the data were processed

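RNA from FACS-sorted thymocytes of 3 groups was amplified, biotin-labelled and hybridised to 7 Affymetrix mouse arrays, per the labels. The deposited intensity values were made by the authors with RMA in Affymetrix Expression Console, per the submitters' processing notes; they are on a linear scale and already normalized between arrays, with array medians of 79.6 to 83.7. Log2 was taken here before any test. Of 45037 probe sets, 34945 have 1 gene symbol, 932 have several and 9160 are unnamed here. Each gene kept its brightest probe set by mean and was tested if that reached 82.0, the 50th percentile of all values, on at least 2 arrays, which left 10874 genes. limma 3.58.1 in R 4.3.3 fitted 1 mean per group over all 7 arrays, with Benjamini-Hochberg adjustment over all 10874 genes, so the comparisons share 1 estimate of the spread. The number of arrays limits precision. The 10 genes and all lists were chosen with earlier results of these data known. The rule for named genes took the 10, up to 6 called genes of each list per comparison, called marker genes, and the 3 genes most like each of the 10; further called genes of the ligand list, and Tln1, Fermt3, Tgfbr1, Tgfbr2 and genes under the filter, were named after their values were seen. Tested on simulated data with 200 changed genes, the fit recovered 77.6% of changes of 1 on the log2 scale in Luxoid NKT against stage 1 NKT, 74.6% in stage 1 NKT against CD4SP and 82.1% in Luxoid NKT against CD4SP, but only 14.9%, 7.46% and 10.4% of changes of 0.5 in these comparisons. The simulated noise was normal and independent between arrays, with the fit's own variances. More than 200 genes were called against CD4SP in the real data (1621 in stage 1 NKT, 1831 in Luxoid NKT). The rates therefore hold for the simulated setting only. Alternatives covered the filter, an offset, probe set summaries, normalization, variance models, a replicate block, a Y-linked covariate and leaving out each array.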

Additional observations from a re-analysis of the deposited data

How the results depend on the processing

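Of 567 alternative values over 19 settings for the 30 differences of the 10 adhesion genes, 539 kept their sign and side of the threshold, 15 newly passed, 7 no longer passed and 6 changed sign. The sign changes were in small differences: Cd44 in Luxoid NKT minus stage 1 NKT ran from -0.61 to 0.18 when 1 array was left out, with the positive value without stage 1 NKT replicate 1. Cd44 in stage 1 NKT minus CD4SP ran from -0.28, without that array, to 0.50, and was -0.021 with the mean of probe sets. Itga4 in Luxoid NKT minus CD4SP was 0.11 with that mean. Itgal in Luxoid NKT minus CD4SP ran from -0.066 to 0.22 when 1 array was left out, and was negative without Luxoid NKT replicate 1 (-0.064) or CD4SP replicate 2. The number of the 10 genes called in Luxoid NKT against stage 1 NKT was 1 (Itgae) with the stricter filter, the offset, the intensity trend or only the groups compared, and 0 to 1 when 1 array was left out. In stage 1 NKT against CD4SP it was 4 with the mean of probe sets, 1 with only the groups compared and 1 to 2 when 1 array was left out. In Luxoid NKT against CD4SP it was 1 to 3 when 1 array was left out. The cause of these changes was not tested, except that fewer arrays entered the last fits.

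Replicate numbers are shared by the groups, but no label ties a number to a litter or day, and each comparison has only 2 shared numbers, so they count as numbers only. With a replicate block 3 of the 10 genes were called in stage 1 NKT against CD4SP (Itgb3 added), 4 in Luxoid NKT against CD4SP (Itgb1 added) and 0 in Luxoid NKT against stage 1 NKT; same-numbered arrays' deviations correlated at 0.334 to 0.491, and number 1 is the array with low Y-linked transcripts in each group. Over all genes the block moved the calls in stage 1 NKT against CD4SP to 2616, against 1621 without it. Testing every probe set gave 2876 calls in Luxoid NKT against CD4SP, against 1831 genes. Leaving out 1 array gave as few as 49 calls in Luxoid NKT against stage 1 NKT (without stage 1 NKT replicate 2, against 169 with all arrays), 635 in stage 1 NKT against CD4SP (without stage 1 NKT replicate 1, against 1621) and 839 in Luxoid NKT against CD4SP (without CD4SP replicate 2, against 1831). Of 716 alternative values for the other adhesion genes, chosen as alternatives after seeing the data, 92 no longer passed and 0 changed sign. The TGF-beta list in stage 1 NKT against CD4SP had 8 calls with the replicate block (2 higher, 6 lower), against 3 without it.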
